A study of Mus musculus with 6 samples.

Results

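The flow-sensing genes of endothelium described here are Klf2, Klf4, Piezo1, Piezo2, Nos3, Thbd, Trpv4, Pkd1 and Heg1, in lymphatic endothelial cells sorted from the mouse meninges. They were chosen by name, as known flow sensors and flow-responsive genes, and all 9 were found among the 22964 genes of the table and passed the filter on low counts that left 15394. The old group was 3 samples from mice aged 20 to 24 months and the young group 3 samples from mice aged 2 to 3 months. All mice were untreated wild-type C57BL/6J males (the design text gives C57BL/6), bought from a commercial breeder or obtained from the US ageing institute and kept in 1 vivarium, and the source of each sample is not given. Cells were sorted as negative for CD45, a leukocyte protein, and positive for CD31 and podoplanin. RNA was amplified linearly before library preparation. Nothing states whether a sample was 1 animal or a pool, so the p-values rest on a spread among samples that could be technical.

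Endothelial cells feel the drag of moving fluid through ion channels and adhesion receptors and answer by changing transcription. In lymphatic vessels of mice, flow of lymph shapes the valves and the collecting vessels. Steady flow acts through the kinases MEKK3, MEK5 and ERK5 and the MEF2 transcription factors to raise Klf2 and Klf4, whose targets include the genes for endothelial nitric oxide synthase (Nos3) and thrombomodulin (Thbd). The receptor encoded by Heg1 holds the cerebral cavernous malformation (CCM) protein complex at the junctions, and that complex restrains MEKK3.

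Stretches before the transcription start are shown for the 4 members that held a match to either of a pair of motifs tied to flow, since these are the letters that flow-responsive factors could read. RefSeq windows (GRCm38.p6) were found for 6 members (Klf2, Klf4, Piezo1, Trpv4, Pkd1 and Heg1), and the 250 bases before each start were searched. The motifs were CTA and TAG with any 4 bases between them, a form of the MEF2 site that reads the same on both strands, and GAGACC, an element first described in a human shear-responsive promoter, searched on both strands. The matches of the 2 motifs do not overlap. Capitals mark the matches (GGTCTC is GAGACC on the other strand), the strand is that of the gene, and each stretch ends before both the RefSeq and the GENCODE start.
Klf2, chr8:72318812-72319032, plus strand: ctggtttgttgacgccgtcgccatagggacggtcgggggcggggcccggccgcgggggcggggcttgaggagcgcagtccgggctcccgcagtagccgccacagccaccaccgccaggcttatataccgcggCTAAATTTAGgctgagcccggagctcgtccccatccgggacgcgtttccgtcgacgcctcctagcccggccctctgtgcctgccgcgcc
Heg1, chr16:33684216-33684369, plus strand: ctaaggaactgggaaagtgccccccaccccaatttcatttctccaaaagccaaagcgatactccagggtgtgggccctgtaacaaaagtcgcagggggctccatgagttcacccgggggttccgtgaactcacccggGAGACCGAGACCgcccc
Pkd1, chr17:24549700-24549833, plus strand: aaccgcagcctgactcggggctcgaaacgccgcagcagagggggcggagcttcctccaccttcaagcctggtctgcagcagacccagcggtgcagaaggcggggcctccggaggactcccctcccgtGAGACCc
Piezo1, chr8:122551330-122551579, minus strand: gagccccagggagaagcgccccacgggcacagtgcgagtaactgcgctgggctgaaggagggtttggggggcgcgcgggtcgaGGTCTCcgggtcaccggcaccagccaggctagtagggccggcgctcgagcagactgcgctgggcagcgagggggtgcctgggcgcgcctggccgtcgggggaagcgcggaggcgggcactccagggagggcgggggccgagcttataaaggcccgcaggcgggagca
The MEF2 form was in the Klf2 window, 118 to 109 bases before the RefSeq start, and in 3.2% of 32851 RefSeq windows of that length. GAGACC was in the windows of Heg1, Pkd1 and Piezo1 and in 13.7% of all windows, and Heg1 held it side by side at 113 to 108 and 107 to 102 bases before its start, where 1.01% of windows held at least 2 matches. Klf4 and Trpv4 held neither set of letters in this window. A match is a string of letters and not a measured binding site.

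The libraries held 14285794 to 20886836 estimated counts in old samples and 15733100 to 21043945 in young samples. Genes with a count numbered 17074 to 17995 in old and 18086 to 18949 in young samples, and mitochondrial rRNA took 16.04% to 21.9% of the counts in old and 15.7% to 16.5% in young samples, and the part of either in the results was not tested. All 8 lymphatic endothelial markers listed, Prox1 and Lyve1 among them, were detected in every sample, with a summed level of 16548 to 20310 CPM (counts scaled by TMM-adjusted library size) in old and 10461 to 12962 CPM in young samples. Prox1, the factor that sets lymphatic fate, had 1112 ± 259 CPM in old and 909 ± 34.4 CPM in young samples (SD, n = 3 each). The sort markers Pecam1 (CD31) and Pdpn (podoplanin) were present in every sample, but so was Ptprc, the gene of the CD45 that was selected against, at 30.7 to 62.9 CPM in old and 0.993 to 72.7 CPM in young samples. The 10 pan-endothelial genes of a fixed list summed to 3038 to 4358 CPM in old and 2145 to 2345 CPM in young samples, and the 9 fibroblast markers to 2608 to 3074 CPM in old and 5369 to 8371 CPM in young samples. Smooth muscle and pericyte markers summed to 861 to 2018 CPM in old and 625 to 959 CPM in young samples, and choroid plexus and epithelial markers to 1216 to 1948 CPM in old and 876 to 982 CPM in young samples. Of the 6 choroid plexus and epithelial markers tested, 3 were positive and 3 negative, with a median log2 fold change of −0.60, and most of the sum was Aqp1, which endothelium also expresses, at 974 to 1277 CPM in old and 614 to 839 CPM in young samples. The part of these cells in the results was not tested. In bulk samples, fewer cells of a type and less RNA per cell cannot be told apart.

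None of the 9 flow-sensing genes passed the edgeR test of old against young cells over all genes. Nos3 stood nearest to the threshold, with 4.92 times the level in old cells, and it was the 1 member whose groups did not overlap. The other 8 members lay between 0.854 and 1.25 times the young level, with overlapping groups. The call rule found 0% of all tested genes, 0 of 15394, so the count of 0 members stands against a background of 0. At an unadjusted p under 0.05 the count was 1 of 9 members, against 5.56% of tested genes in either direction and 2.86% higher in old cells. Groups that did not overlap were found for 12.0% of all tested genes, for 5.56% with the old samples higher and for 6.44% with them lower. Of the members, 7 had a positive log2 fold change and 2 a negative one, with a median of 0.26, where 51.0% of all tested genes were positive and their median was 0.02. Without old sample 2 the median of the members was 0.03. With scaling to the 10 pan-endothelial genes in place of TMM, which moved the median of all genes to −0.69, the median of the members was −0.49 and 8 of the 9 were negative. All 10 scaling genes were positive with TMM, with a median log2 fold change of 0.67, so this scaling lowers the fold changes of genes in general.

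**Figure D1:**
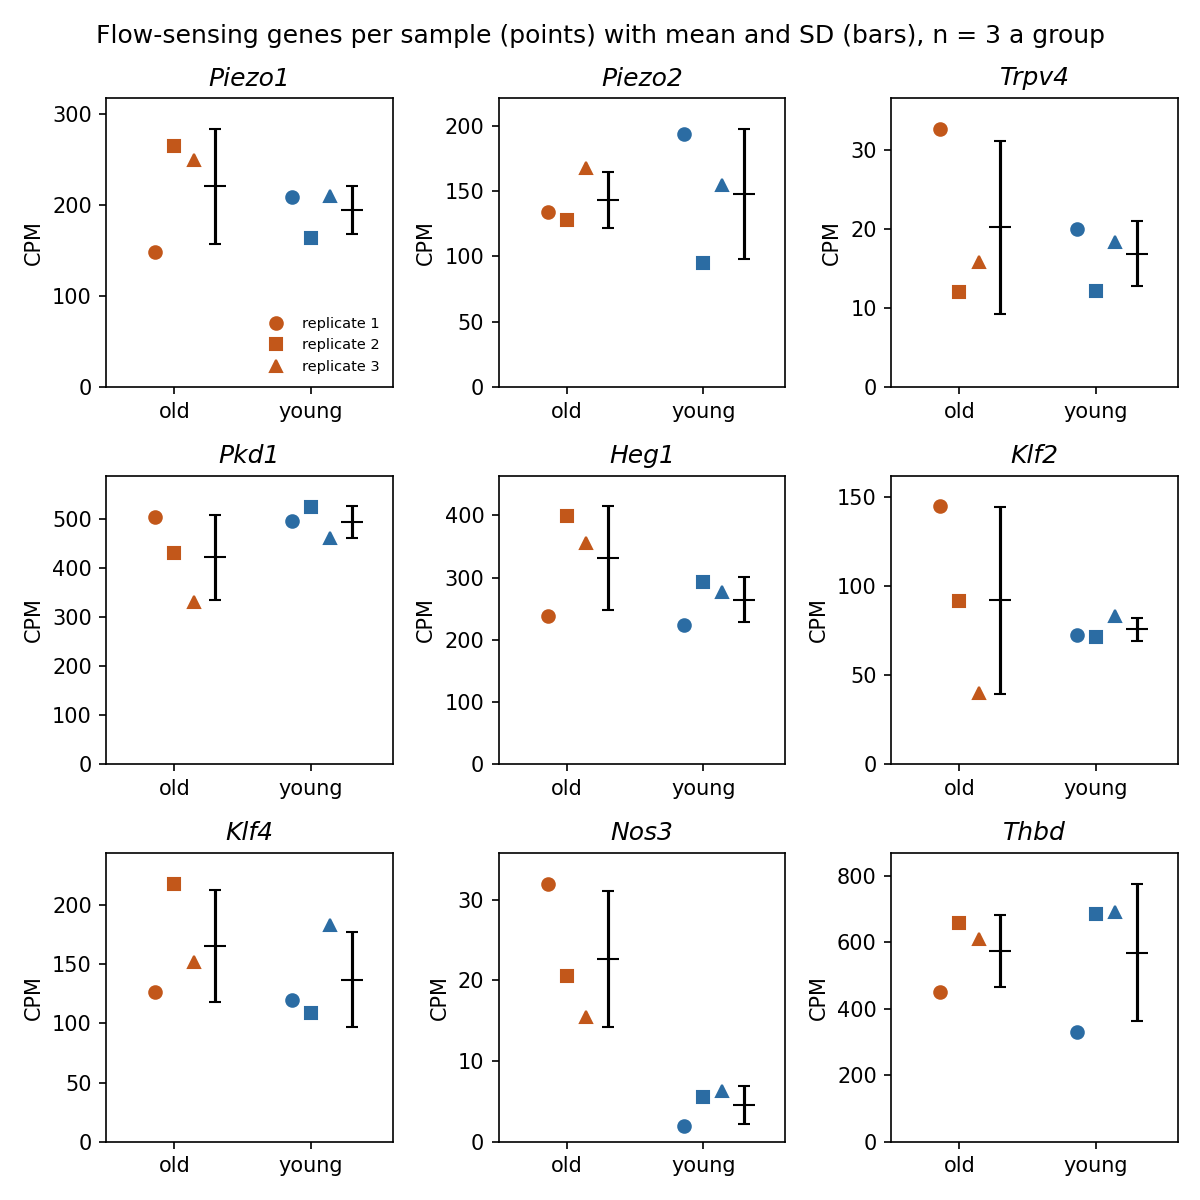
Level of each flow-sensing gene in CPM (vertical axis, from 0, own scale in each panel) in old (orange, left) and young (blue, right) samples, with the mean and SD of 3 samples as bars and the replicate number as the symbol. Nos3 is the panel in which the groups separate, with old samples at 15.5 to 31.95 CPM and young samples at 1.92 to 6.35 CPM.

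The ion channels were present in every sample and their groups overlapped. Piezo1 (ENSMUSG00000014444; chromosome 8, 122481698 to 122551329, minus strand, GRCm38), a cation channel opened by membrane tension and needed in mice for lymphatic valves, had 149, 265 and 249 CPM in old samples 1, 2 and 3 and 209, 164 and 210.3 CPM in young samples 1, 2 and 3. Old sample 1 was the lowest of all 6 and the other old samples were the highest. Piezo1 had a log2 fold change of 0.18 (SE 0.30, 95% interval −0.49 to 0.86), with an edgeR adjusted p = 0.967, and it lay between 0.03 without old sample 2 and 0.40 without old sample 1. Its exons share 2441 bases with the opposite-strand gene Ctu2, which had at most 11.6 CPM in old and 5.72 CPM in young samples. Since strandedness is not given, reads from such shared stretches cannot be assigned to a strand here.

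Piezo2 (ENSMUSG00000041482; chromosome 18, 63010213 to 63387183, minus strand), its relative best known as the touch channel of sensory neurons, had 134, 128 and 168 CPM in old samples and 194, 95.1 and 155 CPM in young samples. The young samples enclosed the old ones, and its log2 fold change was −0.04 (SE 0.34, 95% interval −0.81 to 0.72, adjusted p = 0.999). Calca, a neuropeptide gene of sensory neurons, was at 0 in old samples 1 and 3 and in young sample 1, and Sox10, a factor of Schwann cells, was at 0 in old sample 1. Their part in the Piezo2 values was not tested.

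Trpv4 (ENSMUSG00000014158; chromosome 5, 114622152 to 114658421, minus strand), a calcium channel that responds to swelling and shear, had 32.7, 12.1 and 15.9 CPM in old samples and 20.045, 12.2 and 18.4 CPM in young samples. Old sample 1 stood above the other 5 samples. Its fit gave a log2 fold change of 0.26 (SE 0.74), the least certain of the channels, with a 95% interval of −1.41 to 1.93 and an edgeR adjusted p = 0.984. Without old sample 1 the log2 fold change of Trpv4 was −0.27.

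Pkd1 (ENSMUSG00000032855; chromosome 17, 24549834 to 24596508, plus strand) encodes polycystin 1, a large receptor that works with the channel polycystin 2 and is needed in mice for lymphatic vessels to form normally. It had 503, 430.45 and 330.4 CPM in old samples and 495, 524 and 461 CPM in young samples. Old samples 2 and 3 were below every young sample and old sample 1 was within the young range. Pkd1 had a log2 fold change of −0.23 (SE 0.22, 95% interval −0.73 to 0.28, edgeR adjusted p = 0.948), which stayed negative in each of the 14 alternative settings and was −0.95 with pan-endothelial scaling (adjusted p = 0.260). Its exons share 693 bases with the opposite-strand gene Tsc2, which had 52.9 to 133 CPM in old and 90.1 to 147 CPM in young samples.

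Heg1 (ENSMUSG00000075254; chromosome 16, 33684370 to 33771576, plus strand), the junctional receptor of the CCM complex, which in mice keeps lymphatic vessels intact, had 239, 399.6 and 356 CPM in old samples and 224, 293 and 277 CPM in young samples. Old samples 2 and 3 were above every young sample, and old sample 1 was not. Heg1 had a log2 fold change of 0.32 (SE 0.27), with a 95% interval of −0.28 to 0.93 and an edgeR adjusted p = 0.944, and with pan-endothelial scaling it was −0.34. It was 0.17 without old sample 2 and 0.51 without old sample 1. Its exons share 318 bases with the opposite-strand gene Gm15657, which was not used here. Among the members, Heg1 and Piezo1 ran most alike over the 6 samples, with a root mean square difference of 0.23 in centred log2 CPM. Klf4 stood next to both, at 0.24 from Piezo1 and 0.27 from Heg1.

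Neither transcription factor passed, and the groups of both overlapped. Klf2 (ENSMUSG00000055148; chromosome 8, 72319033 to 72321656, plus strand), whose upstream stretch holds the MEF2 letters above, is the factor that marks endothelium under steady flow. It had 144, 91.7 and 39.9 CPM in old samples and 72.7, 71.1 and 82.9 CPM in young samples. The old samples held the highest and the lowest value of all 6, and their coefficient of variation was 56.8%, against 8.47% in young samples. No test was made of that spread, which rests on 3 samples a group. The log2 fold change was 0.28 (SE 0.48), with a 95% interval of −0.81 to 1.37 and an edgeR adjusted p = 0.969. Its direction turned to −0.20 without old sample 1, to −0.02 in limma-voom and to −0.47 with pan-endothelial scaling.

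Klf4 (ENSMUSG00000003032; chromosome 4, 55527143 to 55532466, minus strand), the sister factor of Klf2 in the response to flow, had 126, 218 and 152 CPM in old samples and 119, 108 and 183 CPM in young samples. Old sample 2 was the highest, and young sample 3 was above both other old samples. Its coefficient of variation was 28.5% in old and 29.4% in young samples. The log2 fold change was 0.27 (SE 0.34), with a 95% interval of −0.50 to 1.04 and an edgeR adjusted p = 0.961, and without old sample 2 it was 0.02. The factors did not rank the old samples alike, since old sample 1 was the highest old sample in Klf2 and the lowest old sample in Klf4.

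Klf2 and Klf4 are also immediate-early genes that tissue digestion can induce, and 18 such genes of a fixed list were read beside them. All 18 were tested, 9 were positive and 9 negative, and the median log2 fold change was −0.06. That median was 0.25 without young sample 3, 0.10 in limma-voom and −0.73 with pan-endothelial scaling. Dnajb1, a heat shock co-chaperone, was the 1 gene at an unadjusted p under 0.05, with 121, 64.2 and 41.4 CPM in old samples and 26.9, 24.9 and 31.6 CPM in young samples (edgeR adjusted p = 0.880). Jun, a subunit of the AP-1 factor, had 206 ± 34.4 CPM in old and 302 ± 130 CPM in young samples, and Hsp90aa1, a heat shock chaperone, had 251 ± 32.2 CPM in old and 351 ± 125 CPM in young samples (SD, n = 3 each). The nuclear receptor Nr4a1 had 213, 94.6 and 83.3 CPM in old samples and 107, 43.9 and 78.2 CPM in young samples, a log2 fold change of 0.77 (SE 0.49). Old sample 1, the highest in Klf2, was the highest of all samples in 4 of the 18 genes (Dnajb1, Dusp1, Egr1 and Nr4a1) and the lowest in 6 (Btg2, Fos, Hsp90aa1, Hspa1a, Ier3 and Jun). The summed level of the list was 3070, 2914 and 2537 CPM in old samples 1, 2 and 3. It was 2300.4, 2527 and 3974 CPM in young samples 1, 2 and 3. The old samples had the same order in this sum as in Klf2, and another order in Klf4. Young sample 3 was the highest of all samples in the sum and the highest young sample in Klf2 and in Klf4. The part of these genes in the Klf2 and Klf4 values was not tested.

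Nos3 (ENSMUSG00000028978; chromosome 5, 24364810 to 24384474, plus strand) encodes the synthase that makes nitric oxide, the gas that relaxes smooth muscle and sets the beat of collecting lymphatics. It had 31.95, 20.6 and 15.5 CPM in old samples 1, 2 and 3, from 427, 283 and 318 estimated counts. The young samples 1, 2 and 3 had 1.92, 5.54 and 6.35 CPM, from 31, 109 and 141 estimated counts. The lowest old sample was thus above the highest young one. The log2 fold change was 2.30 (SE 0.88), and its 95% interval of 0.30 to 4.30 corresponds to 1.23 to 19.7 times the young level. The edgeR p was 0.0289 before adjustment, rank 484 of the 15394 genes, and the adjusted p = 0.888, so the difference did not pass. DESeq2 gave an adjusted p = 0.134 and limma-voom an adjusted p = 0.776. The log2 fold change stayed positive in all 14 alternative settings, from 1.59 to 2.59, and the unadjusted p was under 0.05 in 9 of them.

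Values of other genes were set beside Nos3, and their part in it was not tested. The antisense gene Gm15587, chosen after its values were seen, shares 1040 bases of exon with Nos3 on the other strand and had 78.6, 3.20 and 1.07 CPM in old samples and 11.4, 6.35 and 0.0900 CPM in young samples. Atg9b, which shares 294 bases with Nos3 on the other strand, had at most 0.654 CPM in old and 5.31 CPM in young samples. Of the 10 blood endothelial markers, 9 were tested and 8 were positive, where 51.0% of all tested genes were positive. At an unadjusted edgeR p under 0.05, 4 were higher in old cells, against 2.86% of tested genes. Spock2 was negative, with a log2 fold change of −0.60, and Ly6c1 had 0.16 and Slc2a1 0.36. The 10 markers summed to 1173 to 2033 CPM in old and 852 to 1036 CPM in young samples. Mfsd2a, of the blood-brain barrier, was at 0 in old sample 1 and young sample 1. Vwf (von Willebrand factor), chosen after its values were seen, had 221, 325 and 328 CPM in old samples and 39.03, 66.3 and 31.8 CPM in young samples, with the smallest edgeR adjusted p of the whole table, 0.235. Abcb1a, a drug efflux pump chosen in the same way, had 134, 81.9 and 139 CPM in old samples and 19.5, 25.95 and 50.5 CPM in young samples (adjusted p = 0.686). Old sample 1, highest in Nos3, had the lowest blood endothelial sum among the old samples, 1173 CPM. It was the highest of all samples in the pan-endothelial sum, 4358 CPM, and in the smooth muscle and pericyte sum, 2018 CPM. Young sample 1, lowest in Nos3, had the lowest young blood endothelial sum, 852 CPM beside 863 CPM in young sample 2. It was the highest young sample in the smooth muscle and pericyte sum, 959 CPM, and between the others in the pan-endothelial sum.

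Thbd (ENSMUSG00000074743; chromosome 2, 148404466 to 148408188, minus strand) encodes thrombomodulin, the surface receptor that turns thrombin into an activator of protein C. It was the most abundant member, with 450 CPM in old sample 1 and 656 and 609.7 CPM in old samples 2 and 3, against 331, 685 and 689.98 CPM in young samples 1, 2 and 3. Sample 1 of each age was low and the other 4 samples were close together. The log2 fold change was 0.01 (SE 0.31), with a 95% interval of −0.69 to 0.70 and an edgeR adjusted p = 0.9996. The same samples were lowest in the summed level of the 12 macrophage markers, which can share Thbd with endothelium. That sum was 836 CPM in old sample 1 and 1508 and 2111 CPM in old samples 3 and 2. It was 821 CPM in young sample 1 and 3026 and 4222 CPM in young samples 2 and 3. Mrc1 alone gave 679 CPM of the sum in old sample 1 and 401 CPM in young sample 1. Of the 12 markers, 11 had a negative log2 fold change and Mrc1 a positive one, with a median of −1.54. Over all tested genes 51.0% were positive. All 12 markers were in the table, 11 had counts in every sample, and Tyrobp was at 0 in old sample 2. Their part in the Thbd values was not tested.

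**Figure D2:**
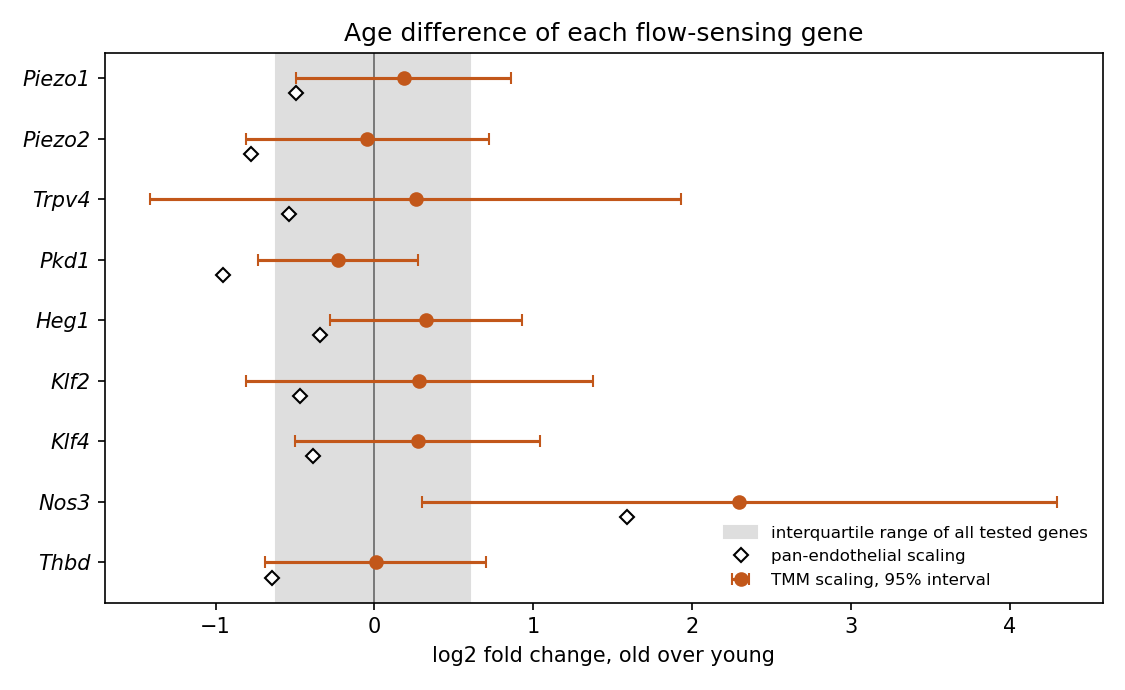
Log2 fold change of old over young cells (horizontal axis) for each flow-sensing gene, as an orange point with its 95% interval from edgeR with TMM scaling and as an open diamond with pan-endothelial scaling, over the interquartile range of all tested genes (grey, −0.62 to 0.60). The interval of Nos3 (0.30 to 4.30) alone lies off 0, and the diamonds of the other 8 genes are all negative.

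The width of the intervals sets what these samples can show. With TMM scaling, the interval lay within a 2-fold change in either direction for 5 members, which were Piezo1, Piezo2, Thbd, Pkd1 and Heg1. It reached past 2-fold for Klf2, Klf4 and Trpv4, and for these 3 it lay within 4-fold. A missed threshold does not show that the levels were alike. The scatter within groups was below the median of genes of similar level (within 1.5 times the member's mean) for 7 of the 9 members, Klf2 and Thbd being the exceptions. For Thbd it was 0.48 log2 units, against a median of 0.30 over 191 genes.

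Levels of different genes were compared per kilobase of annotated exon, since a longer transcript gives more reads. Thbd was highest, with 154 ± 29.1 CPM per kilobase in old and 153 ± 55.3 in young samples (SD, n = 3 each). Klf4 followed with 54.2 ± 15.5 in old and 44.9 ± 13.2 in young samples, and Klf2 with 49.8 ± 28.3 in old and 40.9 ± 3.47 in young samples on the same scale. Klf4 was above Klf2 in 3 of 6 samples, so their order was not fixed. Klf2 was above Pkd1 in 6 of 6 samples, although their ranges overlapped. Pkd1 (24.2 ± 4.97 in old, 28.3 ± 1.82 in young samples), Heg1 (26.04 ± 6.53 and 20.8 ± 2.86) and Piezo1 (22.2 ± 6.35 and 19.6 ± 2.68) formed a middle group with overlapping ranges. Piezo2 was below all of these, with 8.36 ± 1.25 in old and 8.62 ± 2.91 in young samples, and Piezo1 exceeded it in 6 of 6 samples without overlap. Trpv4 had 4.96 ± 2.69 in old and 4.14 ± 1.02 in young samples. Nos3 had the lowest mean over all 6 samples, with 5.49 ± 2.04 in old samples, above the old mean of Trpv4, and 1.11 ± 0.570 in young samples. It lay below Trpv4 in 5 of 6 samples and above it in old sample 2. By CPM, 6 members were above the level of 90% of tested genes, and Nos3 alone was below the median gene.

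**Figure D3:**
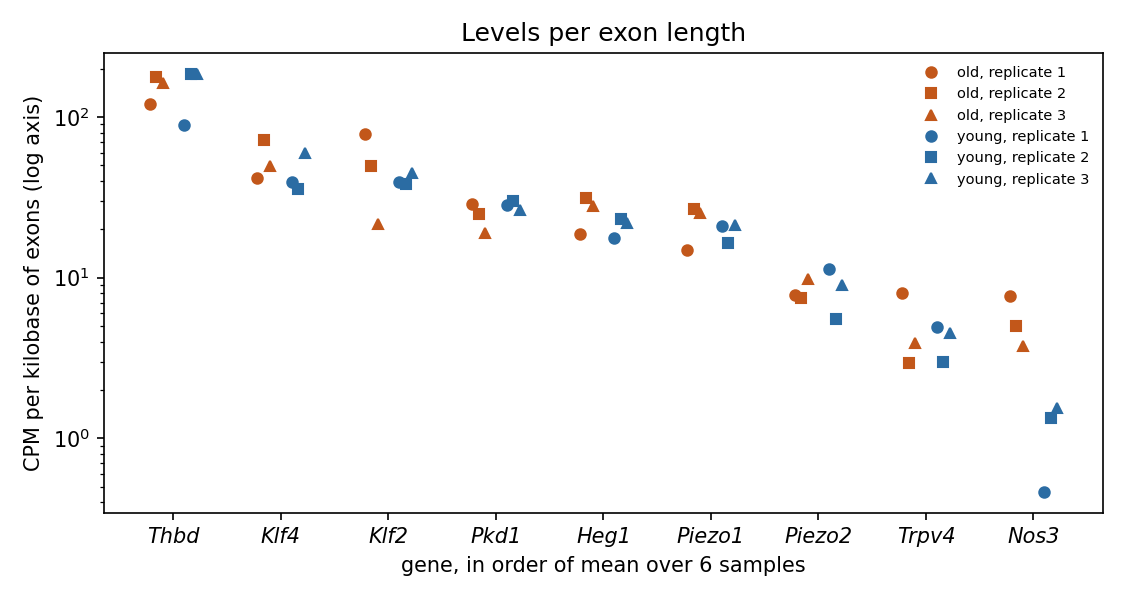
Level of each flow-sensing gene per kilobase of annotated exon (vertical log axis, CPM per kilobase) in the 3 old (orange, left of each pair) and 3 young (blue, right) samples, ordered by the mean over 6 samples. Thbd stands clear of the other genes at 88.9 to 185 CPM per kilobase, and the young samples of Nos3 are the lowest points of all at 0.466 to 1.54.

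The wider flow response was read from 6 lists that hold none of the 9 members. Of 72 listed genes, 71 were in the table and 70 were tested, and 0 passed the adjusted threshold, where the background was 0%. At an unadjusted p under 0.05, 5 of the 70 were higher in old cells and 0 lower, against 2.86% of tested genes higher and 2.70% lower. A total of 46 were positive and 24 negative, where 51.0% of all tested genes were positive.

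Among 14 other sensors and their partners, 12 were positive, where 51.0% of all tested genes were, and the median log2 fold change was 0.43. At an unadjusted edgeR p under 0.05, 4 genes were higher in old cells, against 2.86% of tested genes. These 4 are receptors of the endothelial surface. Pecam1, a junctional adhesion protein of the shear-sensing complex and a sort marker, had 733, 531 and 568 CPM in old samples and 404, 320.45 and 397 CPM in young samples (edgeR adjusted p = 0.797). Cdh5, the cadherin of that complex, had 975 ± 149 CPM in old and 699 ± 78.6 CPM in young samples (SD, n = 3 each). Kdr, which encodes VEGFR2, had 562 ± 98.9 CPM in old and 362 ± 18.2 CPM in young samples. Flt4, which encodes the VEGFR3 of lymphatic endothelium, had 2823 ± 208 CPM in old and 2001 ± 310 CPM in young samples. Old samples were higher without overlap for 5 of the 14, these 4 and Itgb1, and for 5.56% of all tested genes. The 4 were named for their small p, and none passed over all genes, with edgeR adjusted p from 0.797 to 0.888. With pan-endothelial scaling, whose gene list includes Pecam1 and Cdh5, the median of the sensors turned to −0.32.

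The route from Heg1 to Klf2 and Klf4 was read from 14 genes for CCM proteins, kinases, MEF2 factors and histone deacetylases. Of these, 8 were negative and 6 positive, where 51.0% of all tested genes were positive. The median log2 fold change was −0.37, and 0 of 14 were past an unadjusted edgeR p of 0.05. The list holds both the CCM genes, whose complex restrains MEKK3, and the kinases and MEF2 factors, so its median has no single meaning. Mef2a, of the factor family whose site form the Klf2 stretch holds, had 339, 360.1 and 202 CPM in old samples and 446, 489.6 and 373 CPM in young samples, with every old sample below every young one (log2 fold change −0.54, SE 0.27, edgeR adjusted p = 0.891). Groups that did not overlap, with old samples lower, were found for 6.44% of all tested genes. Pdcd10, a CCM protein, had 34.5 ± 20.1 CPM in old and 55.9 ± 16.9 CPM in young samples. Krit1, the CCM protein that binds Heg1, had 46.2 ± 33.8 CPM in old and 23.6 ± 12.8 CPM in young samples, and Rasip1, a Rap1 effector bound by Heg1, had 101 ± 35.1 CPM in old and 71.5 ± 20.5 CPM in young samples (SD, n = 3 each). Leaving out 1 sample moved the median of the route between −0.44 without old sample 2 and 0.03 without young sample 2, so its direction was not fixed.

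Genes that flow raises and genes that flow lowers did not separate by direction. Of 14 genes raised by laminar or lymph flow, 8 were positive and 6 negative, with a median log2 fold change of 0.24. That median was 0.09 without young sample 2, −0.07 in limma-voom and −0.47 with pan-endothelial scaling, whose gene list includes Tek of this list. S1pr1, a receptor for sphingosine 1-phosphate, had 303 ± 45.0 CPM in old and 248 ± 36.5 CPM in young samples, and Cyp1b1, an oxidising enzyme, had 157 ± 62.6 CPM in old and 239.8 ± 50.6 CPM in young samples (SD, n = 3 each). Smad6, an inhibitor of BMP signalling, had 0.0748, 15.9 and 5.91 CPM in old samples and 8.87, 36.8 and 32.003 CPM in young samples. Ass1, which supplies arginine for nitric oxide, was at 0 in old sample 1, at 9.23 and 33.3 CPM in old samples 2 and 3, and at 1.52 to 4.86 CPM in young samples.

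Of 11 genes lowered by laminar flow, 10 were tested, 7 were positive and 3 negative, with a median of 0.07 that lay between −0.09 without old sample 3 and 0.45 without old sample 1. Angpt2, an angiopoietin released by endothelium, had 257 ± 27.3 CPM in old and 304 ± 39.6 CPM in young samples, and Ccn2, a matricellular target of YAP, had 215 ± 61.6 CPM in old and 140.4 ± 39.4 CPM in young samples (SD, n = 3 each). The chemokine gene Ccl2 had 0.374, 6.76 and 9.13 CPM in old samples and 11.5, 14.1 and 21.8 CPM in young samples, with no overlap (log2 fold change −1.54, SE 1.16, edgeR adjusted p = 0.932). Apln, a peptide hormone of endothelium, had 20.6, 0.872 and 49.7 CPM in old samples and 9.68, 0.254 and 1.22 CPM in young samples.

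Of the partners of Nos3, 0 of 11 were past an unadjusted edgeR p of 0.05, against 5.56% of tested genes in either direction. Gch1, named after its values were seen and below 5 CPM on average, was the 1 partner whose groups did not overlap. It had 2.62, 6.76 and 9.57 CPM in old samples and 0, 1.93 and 1.67 CPM in young samples. Groups did not overlap for 12.0% of all tested genes. Of 11 genes of the nitric oxide chain, 7 were positive and 4 negative, with a median log2 fold change of 0.24. Pde5a, which breaks down the cyclic GMP that nitric oxide raises, had 7.48, 21.1 and 2.88 CPM in old samples and 54.98, 20.1 and 19.2 CPM in young samples (edgeR adjusted p = 0.891). Cav1, the caveolar protein that holds the synthase inactive, had 178 ± 46.6 CPM in old and 144 ± 46.7 CPM in young samples, and Gucy1a1, a subunit of the nitric oxide receptor, had 51.7 ± 29.0 CPM in old and 39.8 ± 16.1 CPM in young samples (SD, n = 3 each). Nosip, an interactor of the synthase, had 22.7 ± 4.87 CPM in old and 15.6 ± 11.2 CPM in young samples. The median of the chain turned to −0.46 without old sample 3, to −0.42 with pan-endothelial scaling and to −0.03 in limma-voom.

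Of 8 coagulation partners of Thbd, 7 were tested and 6 were positive, with a median log2 fold change of 0.56 that was 0.21 without young sample 1 and −0.13 with pan-endothelial scaling. F2r, a receptor that thrombin cleaves, had 179, 208.5 and 116 CPM in old samples and 118, 83.7 and 71.7 CPM in young samples, a log2 fold change of 0.88 (SE 0.35) with an unadjusted p under 0.05 and an edgeR adjusted p = 0.888. Old sample 3 was within the young range, and old samples 1 and 2 were above it. Tfpi, the inhibitor of the tissue factor pathway, had 98.99 ± 29.2 CPM in old and 67.1 ± 12.6 CPM in young samples, and Plat, the tissue plasminogen activator, had 53.7 ± 18.3 CPM in old and 35.1 ± 22.2 CPM in young samples (SD, n = 3 each). F5, coagulation factor V, had 68.99, 0.581 and 16.6 CPM in old samples and 3.10, 9.45 and 3.51 CPM in young samples.

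**Figure D4:**
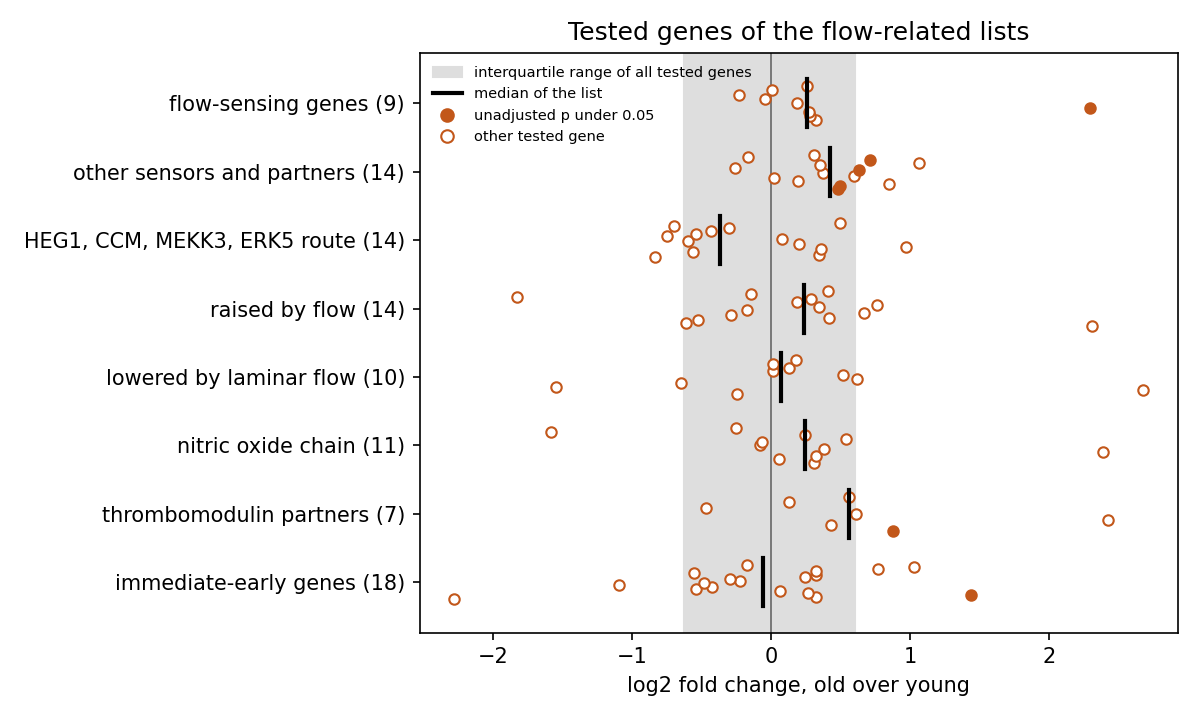
Log2 fold change of old over young cells (horizontal axis) for each tested gene of the flow-sensing list, of the 6 pathway lists and of the immediate-early list, with the number tested in brackets, filled where the unadjusted edgeR p is under 0.05, and with a black bar at each list's median. All medians lie inside the interquartile range of all tested genes (grey, −0.62 to 0.60), from −0.37 for the route to Klf2 and Klf4 to 0.56 for the thrombomodulin partners.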

How the data were processed

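RNA sequencing counts were available for 3 old and 3 young samples. Per the submitters' processing notes the tools were FastQC and Salmon and the build mm10. The deposited values are estimated counts per gene, all of them whole. Strandedness, annotation and the summing of transcripts were not given in the sources used here.

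Symbols, positions and exon lengths came from GENCODE M21 (GRCm38, the assembly mm10 denotes), which named 22738 of 22964 identifiers. The whole table was fitted with edgeR 4.0.16 in R 4.3.3: filterByExpr (minimum 10 counts, minimum total 15), TMM scaling, and a robust quasi-likelihood model with age as its 1 term, tested on both sides with Benjamini-Hochberg adjustment over 15394 genes at 0.05. Standard errors were derived from each gene's log2 fold change and F statistic, and intervals of 95% used them with a t quantile. On 1 set of counts simulated from these libraries, edgeR and limma-voom made no false call but recovered a small share of the changed genes. Most DESeq2 calls on that set were false. The counts were drawn with the dispersions and library sizes that edgeR itself had fitted, so they do not rank the methods on the real data. Alternatives were other scalings and filters, DESeq2 1.42.0, limma-voom (limma 3.58.1), the replicate number as a block, and leaving out each sample.

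The members and lists were chosen with earlier results of these data known, so no list was tested. All 9 members were named. From each pathway, family and immediate-early list, up to 4 genes of at least 5 CPM with the smallest p were named. Cell type markers were read by their summed level, and the sum of the nerve markers is not reported here. The 2 genes most alike to each member had the smallest root mean square difference in log2 CPM (prior count 2), centred over 6 samples, among genes of at least 20 CPM.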

Additional observations from a re-analysis of the deposited data

How the results depend on the processing

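No member passed the threshold in any of the 14 alternatives, and Nos3 stayed positive and Pkd1 negative in all of them. The number of genes called over the table was 0 with edgeR, 130 with DESeq2, 3 with limma-voom and 0 to 1 when 1 sample was left out (1 without old sample 1). At an unadjusted p under 0.05 the counts were 856 with edgeR, 1374 with DESeq2, 1867 with pan-endothelial scaling, 1543 with no filter and 696 to 1396 when 1 sample was left out, highest without old sample 2. With library size only, the genes higher at that p numbered 285 (441 with TMM), and with pan-endothelial scaling 88 were higher and 1779 lower. The median of the members, 0.26, was −0.494 with pan-endothelial scaling and 0.032 to 0.313 when 1 sample was left out, lowest without old sample 2. Of 126 member values under the alternatives, 107 kept their direction and 19 reversed, 11 of them in Thbd or Piezo2. With pan-endothelial scaling the log2 fold changes were −0.466 for Klf2, −0.390 for Klf4, −0.494 for Piezo1, −0.648 for Thbd, −0.537 for Trpv4 and −0.341 for Heg1. Thbd was −0.130 with library size only and −0.002 with no filter, and in limma-voom Klf2 was −0.023 and Piezo2 0.049. Leaving out 1 sample gave Klf2 −0.202 to 0.642, Trpv4 −0.274 to 0.523, Piezo2 −0.289 to 0.203, Thbd −0.266 to 0.161, Piezo1 0.032 to 0.401, Heg1 0.167 to 0.512, Klf4 0.021 to 0.526 and Pkd1 −0.376 to −0.082. The cause was not tested, except that each fit without a sample had 5 samples. The replicate number was tried as a block, in which Piezo2 was 0.007, 0 genes were called and the median of the members was 0.149, that of the genes raised by flow −0.078 and that of the immediate-early genes 0.212. With pan-endothelial scaling the medians of all 6 pathway lists were negative, from −1.04 for the route to Klf2 and Klf4 to −0.127 for the thrombomodulin partners. The deviations of samples of the same number correlated at 0.08, 0.05 and −0.01, so the numbers were not taken to pair the samples, and not every sample correlated best with its own number. The common biological coefficient of variation was 90.1%, which limits single genes, and the low counts of Nos3 in young samples limit its fold change.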

Other observations

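The relatives of the flow-sensing genes were read from family lists. Of 15 other Kruppel-like factors, 13 were in the table and 11 were tested, and 0 passed after adjustment. Of the 11, 9 were positive, with a median log2 fold change of 0.39, where 51.0% of all tested genes were positive. Klf16 was the 1 factor at an unadjusted p under 0.05, with 65.2, 10.7 and 18.4 CPM in old samples and 2.30, 7.97 and 7.61 CPM in young samples (log2 fold change 2.40, SE 0.96, edgeR adjusted p = 0.888). Klf5 had 31.1, 8.35 and 19.97 CPM in old samples and 6.33, 5.28 and 5.67 CPM in young samples. The groups of Klf16 and Klf5, both named for their small p, did not overlap. Old samples were higher without overlap for 2 of the 11 factors and for 5.56% of all tested genes. Klf7 had 338 ± 56.2 CPM in old and 220.2 ± 73.3 CPM in young samples, and Klf3, a repressor of the family, had 281 ± 71.4 CPM in old and 357 ± 53.2 CPM in young samples (SD, n = 3 each). With pan-endothelial scaling the median of these factors turned to −0.31. Of the other TRPV and polycystin genes, 3 were tested. Pkd2, the channel partner of polycystin 1, had 136 ± 33.03 CPM in old and 153 ± 35.9 CPM in young samples, and Trpv2 had 10.2 ± 10.1 CPM in old and 9.16 ± 6.13 CPM in young samples.

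The genes closest in pattern to each member were found by the root mean square difference of centred log2 CPM over 6 samples that share their libraries, among 7083 candidates. Closeness among so many candidates over 6 samples describes these libraries only. For Nos3, whose own SD was 1.46, the closest were Sema3f at 0.34 and Kcna2 at 0.35. The closest were Lrp5 (0.09) and Plekha1 (0.11) for Klf2, Tead1 (0.07) and Rnasek (0.11) for Klf4, Meox1 (0.06) and Tcea1 (0.10) for Piezo1, and Atxn2 (0.12) and Rpl10-ps3 (0.12) for Piezo2. They were Man1a (0.11) and Lrp10 (0.12) for Thbd, Amot (0.09) and Golga3 (0.13) for Trpv4, Ptp4a3 (0.09) and Kdm2a (0.09) for Pkd1, and Ino80d (0.09) and Hipk1 (0.09) for Heg1. Rpl10-ps3 is a pseudogene whose reads cannot be told from those of its copies.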
